A study of Mus musculus with 79 samples.

Results

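This comparison set nuclei of neurons that carried a Kir2.1 vector against nuclei of neurons that carried a mutant Kir2.1 vector, in the visual cortex of dark-housed mice. Its 16 libraries, 8 per vector, were chosen by their titles from the 79 libraries of the series, and 15949 genes were tested. Both vectors were adeno-associated viruses, labelled AAV-Syn1-Kir2.1-2a-mScarlet-KASH for Kir2.1 and with the same parts around a mutant channel for the control. The Syn1 promoter restricts expression to neurons in general and not to 1 type, mScarlet is a red fluorescent protein, and KASH is a peptide that tethers it to the nuclear envelope so that transduced nuclei can be sorted. The nature of the mutation is not given in the sources used here. All mice of both groups carried the INTACT allele, which tags nuclei after Cre recombination, and VIP Cre, each over a wild-type allele. Virus was injected into the visual cortex at postnatal day 55 to 60, and dark housing began 3 days later. It lasted 10 to 12 days in the protocol and 10 days in the library labels. The protocol mentions harvest in the dark and after a return to light, whereas the labels of all 16 libraries give darkness. Each library was made from 50 to 100 sorted nuclei, so it averages a mixture of neuron types.

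Kir2.1, encoded by Kcnj2, is an inward rectifier potassium channel that passes potassium near the resting potential, so that its overexpression holds a neuron away from firing threshold. Neurons couple their firing to transcription through calcium: a first wave of immediate early transcription factors is followed by a later wave of secreted factors, channel subunits and synaptic proteins, and by inhibitors that damp the signalling cascades. In mouse visual cortex this programme is known to be low in darkness and to be induced by light.

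Levels are CPM, counts brought to a common library size with TMM scaling, unless given here as unscaled. Summed levels of marker lists cover members tested or not, and are CPM without that scaling unless stated. Also without it are the levels of Slc17a7, Gfap, Aqp4, Cldn5, Vip and Chodl, and those of Kcnj2 in other sorts. The Kir2.1 libraries held 4731547 to 7614657 counts (median 6155047), the mutant libraries 5126594 to 9267246 (median 6710438), and between 19879 and 22958 genes were detected in each. Kcnj2, which the vectors carry, ran from 169 to 563 CPM (median 417) with the mutant and from 143 to 1147 CPM (median 404) with Kir2.1, a log2 difference of 0.39 ± 0.32 (SE, adjusted p = 0.582). Its level was 3.84 to 8.09 CPM in nuclei without any virus. Kcnj2 reads do not tell the functional channel from the mutant. Syne2, the gene of a KASH-domain protein, ran from 51.9 to 119.5 CPM (median 79.9) with the mutant and from 47.3 to 154 CPM (median 82.1) with Kir2.1. Slc17a7, the vesicular glutamate transporter of cortical excitatory neurons, was at 28.8 to 112 CPM with Kir2.1 and 33.8 to 93.4 CPM with the mutant. The sex label disagreed with Xist and the Y-linked genes in 7 of the 16 libraries, and by those transcripts each vector group held 4 libraries with Xist. Kir2.1 library 10 stood apart, with a correlation of 0.846 to the median of its group. The labels name no animals, and the p-values therefore reflect variation among libraries, which may be partly technical.

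Of the 15949 genes, 347 rose with Kir2.1 (2.18%) and 551 fell (3.45%), 5.63% in all, by edgeR's quasi-likelihood test with Benjamini-Hochberg adjusted p under 0.05. With a change of at least 2-fold besides, 156 rose (0.978%) and 243 fell (1.52%), together 2.5%. In 62 genes (0.389%) every Kir2.1 library lay above every mutant library, and in 181 (1.13%) every Kir2.1 library lay below, 1.52% in all. Among the called genes, 59 of those that rose and 177 of those that fell had groups that did not overlap. The libraries of the vectors also lay apart on the first principal component, which held 15.2% of the variance. It ran from -77.0 to -18.0 in mutant libraries and from -0.201 to 70.2 in Kir2.1 libraries. The median log2 fold change over all genes tested was 0.0448. As each library pools many nuclei, fewer nuclei of a type and less RNA per nucleus cannot be told apart in any of the values that follow. Without mutant library 3 the genes that rose numbered 231, against 347 with it.

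Genes that fell were long. The genomic span of a gene, from its first to its last annotated base with introns, had a median of 143 kb among those that fell, 16.3 kb among those that rose and 22.3 kb among all genes tested. The median level was 82.1 CPM among genes that fell, 48.3 CPM among those that rose and 20.1 CPM among all tested. The shares by span that follow are not adjusted for level. Of the 2347 tested genes of at least 100 kb, 332 fell (14.1%) and 44 rose (1.87%). Of the 13602 shorter genes, 219 fell (1.61%) and 303 rose (2.23%). The share that fell climbed from 0.898% under 10 kb to 2.99% at 30 to 100 kb and 22.7% at 300 kb or more, and the median log2 fold change went from 0.18 to -0.29 over the same range. The same order of medians was present in transduced VIP nuclei, from 0.14 under 10 kb to -0.18 at 300 kb or more, and in all non-transduced nuclei, from 0.11 to -0.15.

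Single libraries differed in the level of long genes as well. The median log2 deviation of genes of at least 100 kb from their mean over the 16 libraries ran from -0.272 to 0.152 with Kir2.1, with a mean of -0.0886 ± 0.159 (SD, n = 8). In mutant libraries it ran from -0.0247 to 0.368, with a mean of 0.117 ± 0.148 (SD, n = 8), and was highest in libraries 3 and 4. Mutant libraries 4 and 3 were also the lowest on the first principal component, at -77.0 and -52.8. Kir2.1 libraries 8 and 6, with the highest deviation of their group, were the lowest of it on that component, at 18.6 and -0.201. A fit with this deviation as a covariate called 153 genes that rose and 242 that fell, and kept 104 and 211 of the original calls. The deviation itself differed between the vectors, so that this fit also takes out part of any vector difference that long genes share. Below it is called the long-gene covariate, and it is named beside each gene whose call it ended. The counts of gene lists given below stand beside 3.45% that fell and 2.18% that rose among all genes tested. Among tested genes of at least 100 kb these shares were 14.1% and 1.87%.

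**Figure D1:**
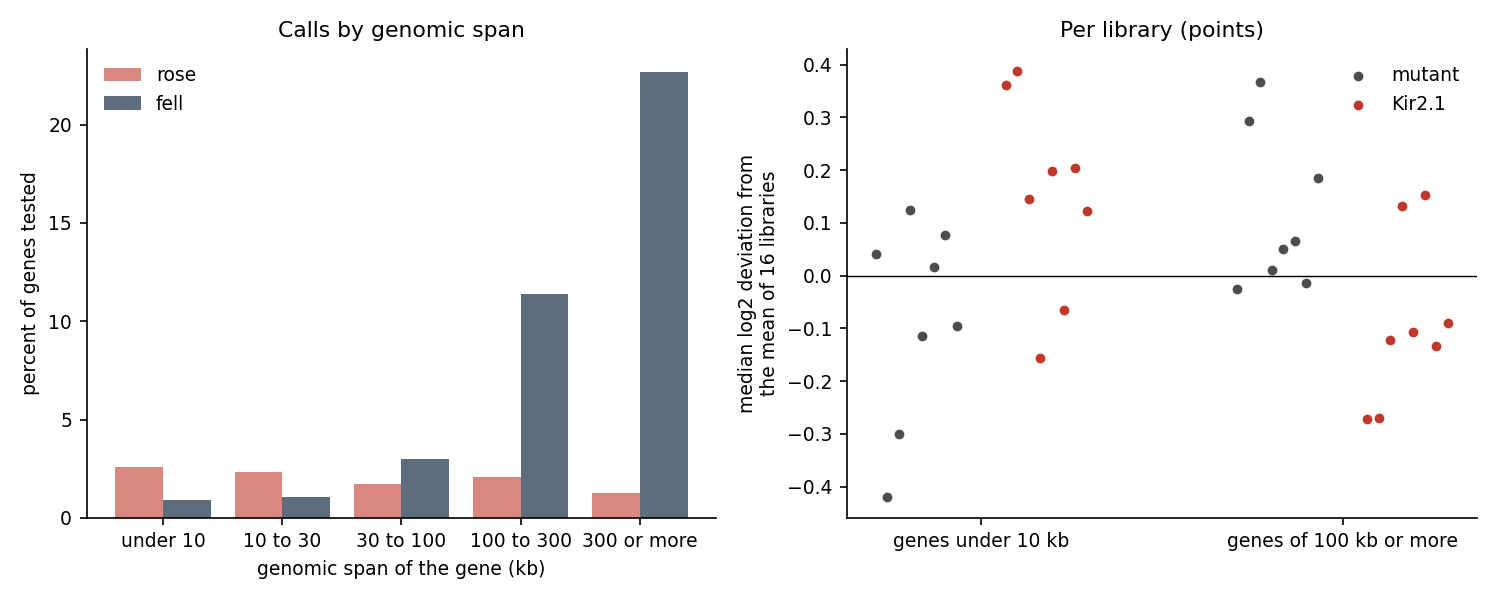
Left, percent of tested genes that rose (red) or fell (blue) with Kir2.1, by genomic span in kb. Right, the median log2 deviation from the mean of the 16 libraries, for genes under 10 kb and of at least 100 kb, with 1 point per library. The share that fell reached 22.7% in the longest class, and the mutant points for long genes lay between -0.0247 and 0.368.

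Nos1 led the genes that rose. It encodes neuronal nitric oxide synthase, which makes the diffusible messenger nitric oxide from arginine when calcium enters the cell (chr5:117781032-117958840, plus strand, GRCm38). It ran from 4.86 to 21.9 CPM (median 10.9) with the mutant and from 71.9 to 141 CPM (median 91.3) with Kir2.1. Nos1 rose by 3.08 ± 0.28 on the log2 scale (SE, adjusted p = 2.65e-07), and every Kir2.1 library lay far above the highest mutant library. Nos1 also marks a rare type of GABAergic interneuron. Chodl, another marker of that type, stayed below the filter, with 99 counts in 5 of the 8 Kir2.1 libraries, at most 6.72 CPM, and 0 counts in all 8 mutant libraries. At such low counts a library without a Chodl read is not shown to lack this interneuron type. The part of the type in the Nos1 difference was not tested. Cpne6, a copine that binds membranes in response to calcium (chr14:55510445-55517431, plus strand), ran from 117 to 258 CPM (median 160.0) with the mutant and from 405 to 749.5 CPM (median 564) with Kir2.1. It rose by 1.76 ± 0.17 on the log2 scale (SE, adjusted p = 2.65e-07). Echdc2, an enoyl-CoA hydratase domain protein of mitochondria (chr4:108165437-108179308, plus strand), ran from 19.9 to 54.4 CPM (median 37.2) with the mutant and from 102 to 240.0 CPM (median 153) with Kir2.1 and rose by 2.12 ± 0.22 on the log2 scale (SE, adjusted p = 8.56e-07). Matn2, the extracellular matrix protein matrilin-2 (chr15:34306677-34436273, plus strand), rose by 1.58 ± 0.17 on the log2 scale (SE, adjusted p = 2e-06), from 38.7 to 81.6 CPM in mutant libraries (median 53.5) against 132 to 213 CPM in Kir2.1 libraries (median 178). For Cpne6, Echdc2 and Matn2, too, all 8 Kir2.1 libraries lay above all 8 mutant libraries.

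The next genes by adjusted p were of several kinds. Kif26b, an unconventional kinesin, ran from 13.2 to 72.0 CPM (median 33.8) with the mutant and from 83.3 to 134 CPM (median 115) with Kir2.1 and rose by 1.66 ± 0.23 on the log2 scale (SE, adjusted p = 5.45e-05). It spans 410 kb, so a long gene was also among those that rose. Nnat, the imprinted gene of the membrane proteolipid neuronatin, was low in every mutant library, 3.87 to 7.47 CPM in mutant libraries (median 6.27) against 17.5 to 74.2 CPM in Kir2.1 libraries (median 26.5), and rose by 2.45 ± 0.31 on the log2 scale (SE, adjusted p = 1.16e-05). It lies in an intron of Blcap on the other strand. Chrd, the gene of the bone morphogenetic protein antagonist chordin, rose by 1.14 ± 0.17 on the log2 scale (SE, adjusted p = 8.44e-05), Lztr1, an adaptor for ubiquitin ligation of Ras proteins, by 1.16 ± 0.16 (SE, adjusted p = 3.66e-05), and Tmem91, a transmembrane protein, by 1.87 ± 0.28 (SE, adjusted p = 0.00011). Rnf207, a RING finger gene, rose by 2.03 ± 0.28 on the log2 scale (SE, adjusted p = 3.51e-05). In all of these the groups did not overlap. Rogdi rose by 1.44 ± 0.18 on the log2 scale (SE, adjusted p = 1.16e-05) with Gm42477 on the opposite strand (1.45 ± 0.18 (SE, adjusted p = 1.13e-05)), and Zfhx2, a zinc finger homeobox gene, rose by 1.61 ± 0.21 on the log2 scale (SE, adjusted p = 2.35e-05) with the overlapping Gm20687 (1.48 ± 0.19 (SE, adjusted p = 1.14e-05)). Strand use in the counting is not given, so each of these pairs may be the same reads counted for either gene.

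Some of the largest changes were in genes close to the lower end of detection. Mro, the maestro gene, ran from 0 to 6.76 CPM (median 2.18) with the mutant and from 9.62 to 30.5 CPM (median 18.4) with Kir2.1 and rose by 3.03 ± 0.59 on the log2 scale (SE, adjusted p = 0.00158), with no overlap. Blnk, an adaptor protein best known from B cells, ran from 5.04 to 21.1 CPM (median 6.44) with the mutant and from 22.8 to 54.9 CPM (median 35.7) with Kir2.1 and rose by 2.02 ± 0.31 on the log2 scale (SE, adjusted p = 0.000126). Among abundant transcripts that rose, Snhg11, a long noncoding RNA of neurons, ran from 3964 to 5152 CPM (median 4158) with the mutant and from 5389.7 to 7194 CPM (median 6306) with Kir2.1. Its difference of 0.52 ± 0.11 (SE, adjusted p = 0.00297) on the log2 scale was small, and yet the groups did not overlap. Myt1l, a zinc finger factor that represses non-neuronal genes, ran from 914 to 1236 CPM (median 1064) with the mutant and from 1278 to 1986 CPM (median 1502) with Kir2.1 and rose by 0.54 ± 0.12 on the log2 scale (SE, adjusted p = 0.00641), again without overlap.

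R3hdm1 had the smallest adjusted p of the genes that fell. It encodes a protein with an R3H domain, a fold that binds nucleic acid (chr1:128103301-128237736, plus strand), and it is long and abundant. It ran from 1245 to 1713 CPM (median 1475) with the mutant and from 514 to 721 CPM (median 593) with Kir2.1. R3hdm1 fell by 1.26 ± 0.12 on the log2 scale (SE, adjusted p = 2.65e-07), and the gap between the highest Kir2.1 and the lowest mutant library was wider than the range of the Kir2.1 libraries. Mlip, which encodes a protein that interacts with lamin A (chr9:77102081-77352969, minus strand), ran from 181 to 333 CPM (median 254) with the mutant and from 59.4 to 102 CPM (median 83.9) with Kir2.1 and fell by 1.64 ± 0.16 on the log2 scale (SE, adjusted p = 2.65e-07). Grm3, a metabotropic glutamate receptor that couples to inhibitory G proteins (chr5:9485541-9725170, minus strand), overlaps the predicted gene Gm42455 on the other strand, whose reads may be mixed with its own. Grm3 ran from 221 to 499.8 CPM (median 371) with the mutant and from 69.0 to 139.5 CPM (median 90.0) with Kir2.1 and fell by 1.89 ± 0.19 on the log2 scale (SE, adjusted p = 4.54e-07). Trhde, the ectoenzyme that degrades thyrotropin-releasing hormone, ran from 128 to 258 CPM (median 208) with the mutant and from 29.2 to 92.7 CPM (median 53.9) with Kir2.1. It fell by 1.90 ± 0.21 on the log2 scale (SE, adjusted p = 2.36e-06). In each of R3hdm1, Mlip, Grm3 and Trhde every Kir2.1 library lay below every mutant library.

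Other leading genes that fell had a range of known roles. Bach2, a transcriptional repressor, ran from 80.3 to 168 CPM (median 118) with the mutant and from 15.3 to 52.4 CPM (median 31.6) with Kir2.1 and fell by 1.91 ± 0.21 on the log2 scale (SE, adjusted p = 2.7e-06). Samd4, the mammalian Smaug homologue that binds and silences mRNA, ran from 51.6 to 106 CPM (median 61.7) with the mutant and from 2.65 to 20.2 CPM (median 11.5) with Kir2.1 and fell by 2.62 ± 0.30 on the log2 scale (SE, adjusted p = 2.93e-06). Hdac9, a class IIa histone deacetylase that binds MEF2 factors, ran from 259 to 521 CPM (median 349) with the mutant and from 88.7 to 194 CPM (median 108) with Kir2.1 and fell by 1.53 ± 0.19 on the log2 scale (SE, adjusted p = 9.68e-06). Zfp804b, a zinc finger gene, fell by 2.48 ± 0.28 on the log2 scale (SE, adjusted p = 2.97e-06). Osbpl3, an oxysterol-binding-protein relative that moves lipids between membranes, fell by 1.53 ± 0.15 on the log2 scale (SE, adjusted p = 4.69e-07). None of these 5 genes had overlapping groups either.

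**Figure D2:**
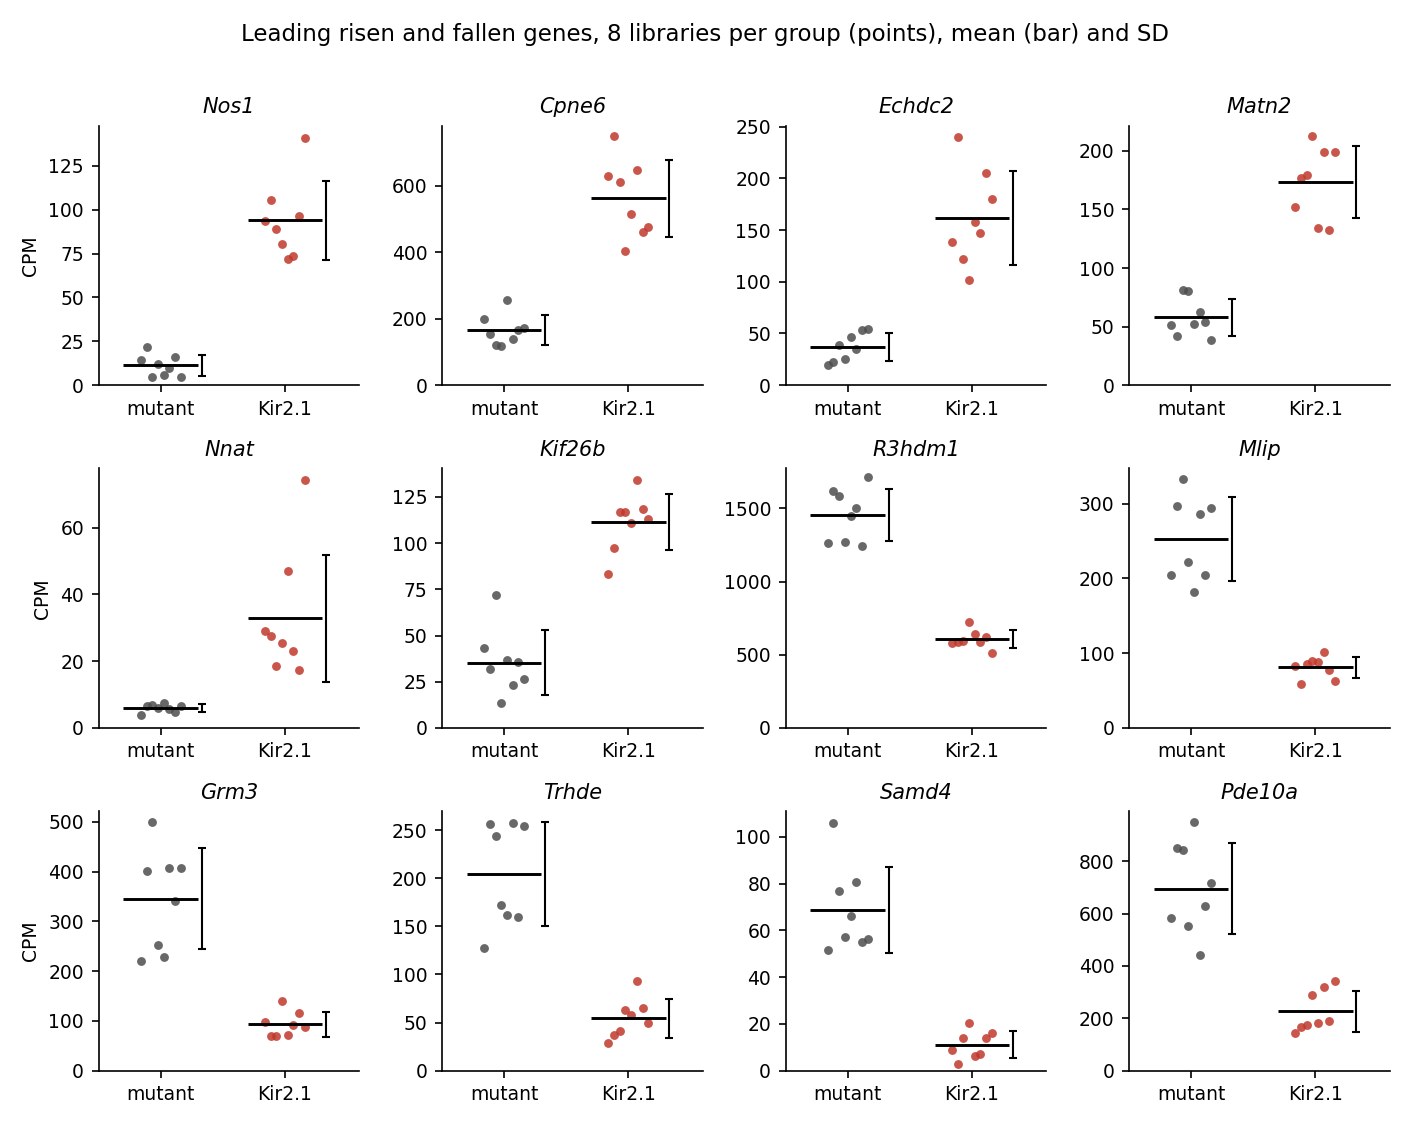
CPM of 6 genes that rose and 6 that fell, with 1 point per library, the mean as a bar and the SD beside it, for 8 mutant (grey) and 8 Kir2.1 (red) libraries; each vertical axis is linear and starts at 0. In all 12 genes the points of the groups do not overlap, and Nos1 goes from 4.86 to 21.9 CPM with the mutant to 71.9 to 141 CPM with Kir2.1.

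Etl4, Thsd7b and the antisense transcript Sorbs2os, which overlaps Sorbs2, also fell without overlap, with log2 fold changes of -1.28, -1.501 and -1.16 (adjusted p = 9.68e-06, 9.68e-06 and 4.87e-06). The steepest falls by fold were in scarce transcripts. Egfr, the epidermal growth factor receptor, ran from 1.94 to 16.7 CPM (median 10.3) with the mutant and from 0 to 1.09 CPM (median 0.0630) with Kir2.1 and fell by 5.45 ± 0.84 on the log2 scale (SE, adjusted p = 0.000139). Its fold rests on values near 0, and without Kir2.1 library 10, which held its highest Kir2.1 value, the log2 fold change was -6.45. Stac, an adaptor of L-type calcium channels, ran from 3.43 to 15.9 CPM (median 8.96) with the mutant and from 0 to 1.47 CPM (median 0.224) with Kir2.1 and fell by 4.26 ± 0.76 on the log2 scale (SE, adjusted p = 0.000723).

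Among the most abundant genes that fell were those of synaptic and channel-associated membrane proteins, with smaller folds. Ptprd, a receptor phosphatase that organises synapses, ran from 6177 to 11769 CPM (median 9002) with the mutant and from 3432 to 7112 CPM (median 5266) with Kir2.1 and fell by 0.78 ± 0.15 on the log2 scale (SE, adjusted p = 0.00192). Nrg1, the growth factor neuregulin-1, ran from 2373 to 3794 CPM (median 2822) with the mutant and from 1384 to 2781 CPM (median 1742) with Kir2.1 and fell by 0.71 ± 0.15 on the log2 scale (SE, adjusted p = 0.00331), with an adjusted p of 0.0518 under the long-gene covariate. Nrxn3, a presynaptic neurexin, ran from 3581 to 5669 CPM (median 3953) with the mutant and from 2009 to 3577 CPM (median 2581) with Kir2.1 and fell by 0.66 ± 0.13 on the log2 scale (SE, adjusted p = 0.00228), without overlap.

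Immediate early genes were scarce in these dark-housed libraries, and the members that passed the test fell. Of the 31 listed, 15 passed the filter on low counts, 2 fell and 0 rose, and their median log2 fold change was -0.54 against 0.0448 over all genes tested, where 3.45% fell. Egr1, a zinc finger factor induced by synaptic activity, ran from 19.2 to 72.2 CPM (median 46.2) with the mutant and from 0.178 to 9.57 CPM (median 3.44) with Kir2.1. It fell by 3.28 ± 0.46 on the log2 scale (SE, adjusted p = 4.63e-05), and the groups did not overlap. Nr4a1, an orphan nuclear receptor induced by calcium and cyclic AMP (chr15:101254269-101274795, plus strand), ran from 11.2 to 81.4 CPM (median 38.4) with the mutant and from 0.405 to 6.25 CPM (median 4.10) with Kir2.1 and fell by 3.70 ± 0.48 on the log2 scale (SE, adjusted p = 1.7e-05), again without overlap. The other 13 did not pass. Arc, a regulator of AMPA receptor trafficking, had a log2 fold change of -1.85 (adjusted p = 0.123), Nr4a2 of -2.34 (adjusted p = 0.229), Nr4a3 of -1.78 (adjusted p = 0.0894) and Dusp1 of -1.04 (adjusted p = 0.107). Junb had -0.10 (adjusted p = 0.928), Jun 0.31 (adjusted p = 0.883) and Gadd45g 2.06 (adjusted p = 0.0752), so their direction was mixed. The 16 members that stayed below the filter included Fos, with 16 counts over the 8 Kir2.1 libraries and 306 over the 8 mutant libraries, and Npas4, with 2 and 175. Fos was counted in 2 Kir2.1 and 6 mutant libraries, and 13 of the 16 had a lower mean CPM with Kir2.1. No fold or test was given for them.

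The promoters of 4 genes are printed because a cyclic AMP response element, the site of CREB, is the textbook route from calcium to these genes. Each runs from 250 bases before to 50 bases after a RefSeq transcription start (GRCm38.p6), 5′ to 3′ along the gene's strand, and capitals mark the full element TGACGTCA or its short form TGACG, which appears as CGTCA when it lies on the other strand. The regions are chr13:75089607-75089906 (plus) for Pcsk1, chr1:79439977-79440276 (minus) for Scg2, chr15:101266596-101266895 (plus) for Nr4a1 and chr5:117866589-117866888 (plus) for Nos1. Those of Nr4a1 and Nos1 lie inside the gene spans given above, so a start at the first annotated base of these genes is not covered.
Pcsk1: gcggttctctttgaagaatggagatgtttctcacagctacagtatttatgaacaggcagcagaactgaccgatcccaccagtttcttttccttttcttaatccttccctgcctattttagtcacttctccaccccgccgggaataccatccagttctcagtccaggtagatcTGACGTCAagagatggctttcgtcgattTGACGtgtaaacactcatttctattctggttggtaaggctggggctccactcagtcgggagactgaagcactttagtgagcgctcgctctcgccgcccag
Scg2: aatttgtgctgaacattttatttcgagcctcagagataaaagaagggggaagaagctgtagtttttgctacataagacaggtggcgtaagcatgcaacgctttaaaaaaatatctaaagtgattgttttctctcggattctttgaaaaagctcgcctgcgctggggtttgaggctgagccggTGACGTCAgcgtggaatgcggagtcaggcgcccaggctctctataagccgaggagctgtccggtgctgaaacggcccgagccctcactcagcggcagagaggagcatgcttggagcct
Nr4a1: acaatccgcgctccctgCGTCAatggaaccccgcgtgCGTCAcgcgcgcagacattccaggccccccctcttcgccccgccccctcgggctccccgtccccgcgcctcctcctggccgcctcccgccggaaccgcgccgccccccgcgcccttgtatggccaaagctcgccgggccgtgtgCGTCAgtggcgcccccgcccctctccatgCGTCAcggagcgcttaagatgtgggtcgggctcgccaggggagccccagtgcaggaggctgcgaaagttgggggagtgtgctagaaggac
Nos1: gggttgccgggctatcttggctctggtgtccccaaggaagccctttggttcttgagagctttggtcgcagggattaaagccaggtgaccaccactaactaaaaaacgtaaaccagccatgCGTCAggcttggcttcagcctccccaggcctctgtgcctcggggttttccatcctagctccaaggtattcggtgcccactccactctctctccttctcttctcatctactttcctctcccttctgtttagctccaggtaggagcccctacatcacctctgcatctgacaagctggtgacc
The full element, which reads the same on both strands and contains TGACG on each, was present in Pcsk1 and Scg2 and in neither Nr4a1 nor Nos1. Nr4a1 held 4 short forms and Nos1 1. Searched on both strands, the full element occurred in 588 of the 32851 promoters of the RefSeq table (1.79%) and the short form in 20.8%. Among promoters of tested genes, of which 10649 of 15949 matched, the shares were 2.95% and 30.1%. They were 1.68% and 24.1% for genes that rose and 2.13% and 20.9% for genes that fell. Of the 28 promoters of members that fell in the immediate early, late and feedback lists, 2 held the full element (7.14%) and 9 the short form (32.1%). The 2 with the full element are those of Pcsk1 and Scg2, so the printed genes are not an unselected sample. Among the 76 promoters of all tested members of these lists, fallen or not, the shares were no lower, 7.89% and 35.5%.

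Late activity-regulated genes held the secreted factors and scaffolds of the programme. Of 38 listed, 34 were tested, 13 fell and 1 rose, and the median was -0.64. Among secreted products, Pcsk1, a prohormone convertase of secretory granules, ran from 24.3 to 96.6 CPM (median 41.6) with the mutant and from 2.16 to 11.1 CPM (median 6.71) with Kir2.1. It fell by 2.79 ± 0.32 on the log2 scale (SE, adjusted p = 3.52e-06), and the groups did not overlap. Scg2, secretogranin II, the precursor of secretoneurin, ran from 66.0 to 152 CPM (median 104) with the mutant and from 20.7 to 75.5 CPM (median 38.2) with Kir2.1 and fell by 1.37 ± 0.25 on the log2 scale (SE, adjusted p = 0.000792), with some overlap. Bdnf, the neurotrophin that acts on TrkB, ran from 3.53 to 46.2 CPM (median 22.3) with the mutant and from 0 to 11.1 CPM (median 4.13) with Kir2.1 and fell by 2.49 ± 0.60 on the log2 scale (SE, adjusted p = 0.0111). Its adjusted p was 0.0762 with the long-gene covariate. Homer1, a postsynaptic scaffold with a short activity-induced isoform, ran from 115 to 362 CPM (median 204) with the mutant and from 62.2 to 127 CPM (median 91.9) with Kir2.1 and fell by 1.13 ± 0.20 on the log2 scale (SE, adjusted p = 0.000618). Counts per gene do not separate its isoforms. Rgs4, which speeds the shut-off of G protein signals, ran from 42.2 to 116 CPM (median 97.7) with the mutant and from 5.24 to 63.7 CPM (median 24.97) with Kir2.1 and fell by 1.71 ± 0.31 on the log2 scale (SE, adjusted p = 0.000922). Spred1, an inhibitor of Ras to MAP kinase signalling, ran from 61.3 to 123 CPM (median 107) with the mutant and from 30.8 to 58.4 CPM (median 39.6) with Kir2.1 and fell by 1.22 ± 0.19 on the log2 scale (SE, adjusted p = 0.000114). Of these, Pcsk1 and Spred1 had groups that did not overlap.

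Nptx1, a neuronal pentraxin that clusters AMPA receptors, was the late gene that went up. It ran from 99.9 to 209 CPM (median 154) with the mutant and from 182 to 420.1 CPM (median 248) with Kir2.1 and rose by 0.85 ± 0.18 on the log2 scale (SE, adjusted p = 0.00412), with an adjusted p of 0.113 under the long-gene covariate. Nptx2, its activity-induced relative, stayed below the filter with 10 counts over the Kir2.1 libraries and 293 over the mutant libraries.

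Feedback regulators of activity signalling numbered 22 tested of 25, of which 7 fell and 0 rose, with a median of -0.71. Dusp3, a phosphatase of MAP kinases, ran from 19.0 to 69.9 CPM (median 56.4) with the mutant and from 13.1 to 30.7 CPM (median 21.9) with Kir2.1 and fell by 1.25 ± 0.24 on the log2 scale (SE, adjusted p = 0.00165). Spred3 ran from 8.47 to 18.6 CPM (median 14.1) with the mutant and from 1.08 to 7.38 CPM (median 4.36) with Kir2.1 and fell by 1.70 ± 0.39 on the log2 scale (SE, adjusted p = 0.00817), without overlap. Under the long-gene covariate 2 of the 7 kept their call, and these were Dusp3 and Spred3. Leaving out mutant library 3 or Kir2.1 library 5 lowered the count that fell to 4. In the late list 9 of the 13 kept it, and in the immediate early list both.

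**Figure D3:**
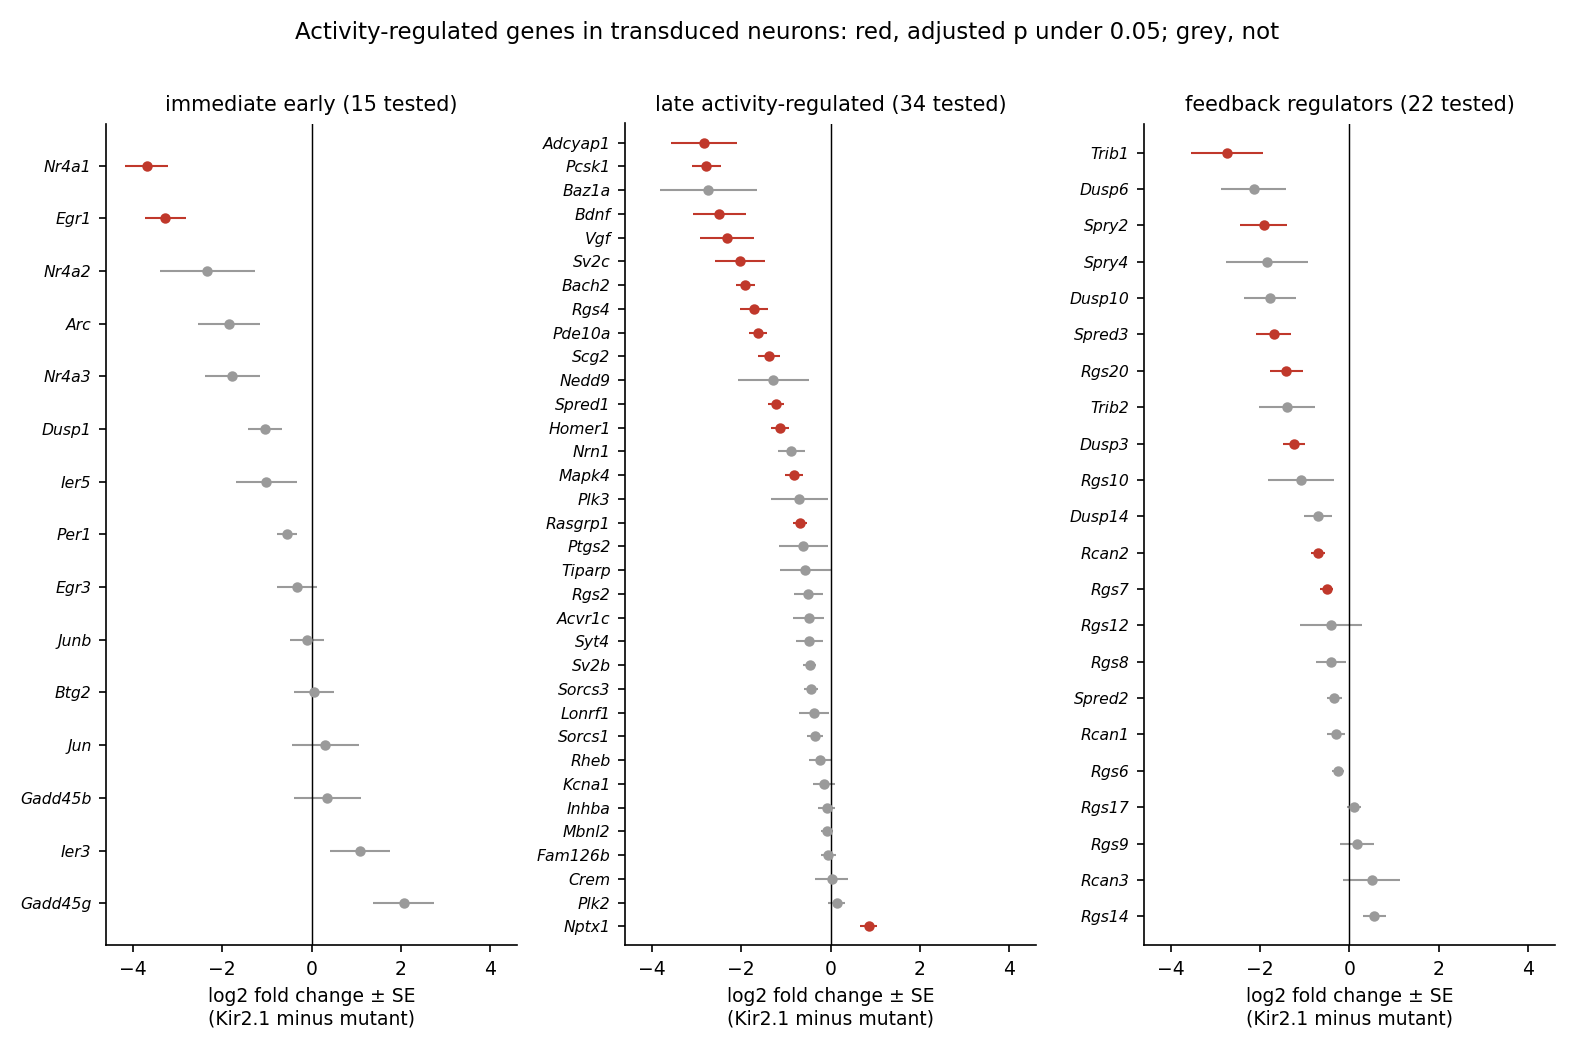
Log2 fold change of each tested member of the 3 activity lists, with the SE as a bar; red points passed an adjusted p of 0.05 and grey points did not. In the late list 13 of 34 members are red below 0 and Nptx1 alone is red above 0.

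Genes of the secretory granule and prohormone processing outside the activity lists were split. Of 16 tested, 3 fell and 1 rose, with a median of 0.07. Pam, which amidates peptides, ran from 445 to 817 CPM (median 503) with the mutant and from 234 to 407 CPM (median 306) with Kir2.1 and fell by 0.87 ± 0.15 on the log2 scale (SE, adjusted p = 0.000602), without overlap. Scg3, a granin that sorts granule cargo, ran from 43.7 to 126 CPM (median 80.9) with the mutant and from 32.1 to 60.3 CPM (median 51.6) with Kir2.1 and fell by 0.80 ± 0.19 on the log2 scale (SE, adjusted p = 0.0113). Of 25 neuropeptide genes 13 were tested and 0 passed, with a median of -0.66.

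Most other genes of nitric oxide signalling did not pass the test. Of 19 tested, 2 rose and 1 fell, and the median was 0.21. Asl, an enzyme that regenerates arginine, ran from 1.77 to 37.7 CPM (median 12.2) with the mutant and from 12.5 to 77.1 CPM (median 40.8) with Kir2.1 and rose by 1.63 ± 0.42 on the log2 scale (SE, adjusted p = 0.0187). Its adjusted p was 0.306 with the long-gene covariate and 0.057 without Kir2.1 library 10 and mutant libraries 3 and 4. Ass1, the enzyme before it, had a log2 fold change of 1.67 (adjusted p = 0.0528), the endothelial synthase Nos3 of 0.04 (adjusted p = 0.982) and the adaptor Nos1ap of -0.31 (adjusted p = 0.227).

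Potassium channel genes other than inward rectifiers fell in 13 of 51 tested cases, and 1 rose, with a median of -0.35. Of the 13, 11 span at least 100 kb and 7 kept their call with the long-gene covariate. Kcnma1, the large-conductance calcium-activated BK channel, ran from 1469 to 1956 CPM (median 1763) with the mutant and from 798 to 1287 CPM (median 1049) with Kir2.1. It fell by 0.73 ± 0.12 on the log2 scale (SE, adjusted p = 0.000276), and the groups did not overlap. Kcnab1, an auxiliary beta subunit that inactivates Kv1 channels, ran from 211 to 315 CPM (median 239.8) with the mutant and from 95.2 to 167 CPM (median 142) with Kir2.1 and fell by 0.88 ± 0.15 on the log2 scale (SE, adjusted p = 0.000315), without overlap. Kcnn2, a small-conductance calcium-activated channel, ran from 123 to 254 CPM (median 181) with the mutant and from 82.5 to 135 CPM (median 104) with Kir2.1 and fell by 0.85 ± 0.15 on the log2 scale (SE, adjusted p = 0.000841). The A-type current of Kv4 channels depends on auxiliary proteins, of which Kcnip4 fell by 0.85 ± 0.15 on the log2 scale (SE, adjusted p = 0.000522) and Dpp10 fell by 0.82 ± 0.14 on the log2 scale (SE, adjusted p = 0.000422). Of 8 tested inward rectifier genes, Kcnj3, a G protein-gated subunit, was the only one called. It ran from 337 to 554 CPM (median 427) with the mutant and from 133 to 427 CPM (median 274) with Kir2.1 and fell by 0.70 ± 0.18 on the log2 scale (SE, adjusted p = 0.0149), with an adjusted p of 0.311 under the long-gene covariate and 0.0912 without Kir2.1 library 10 and mutant libraries 3 and 4.

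Sodium, calcium and HCN channel genes fell in 9 of 39 tested cases and rose in 1, with a median of -0.24. Of the 9, 4 kept their call with the long-gene covariate, and leaving out mutant library 3 lowered the count that fell to 5. Fgf13, an intracellular factor that binds sodium channels, ran from 87.6 to 303 CPM (median 149.7) with the mutant and from 22.4 to 109.8 CPM (median 39.5) with Kir2.1 and fell by 1.91 ± 0.30 on the log2 scale (SE, adjusted p = 0.000144). Cacnb4, a calcium channel beta subunit, ran from 651 to 967 CPM (median 809.8) with the mutant and from 394 to 630.5 CPM (median 505) with Kir2.1 and fell by 0.66 ± 0.13 on the log2 scale (SE, adjusted p = 0.00183), without overlap. The gene that rose was Cacna1g, a low-threshold T-type calcium channel. It ran from 35.2 to 58.3 CPM (median 46.5) with the mutant and from 46.0 to 103 CPM (median 83.2) with Kir2.1 and rose by 0.81 ± 0.18 on the log2 scale (SE, adjusted p = 0.00697), and its adjusted p was 0.0653 without Kir2.1 library 10 and mutant libraries 3 and 4. Among 27 calcium-handling genes, 4 fell and 0 rose, and 2 of the 4 kept their call with the long-gene covariate. Ncald, a calcium sensor, ran from 351 to 480.3 CPM (median 388) with the mutant and from 215 to 307 CPM (median 242) with Kir2.1 and fell by 0.68 ± 0.12 on the log2 scale (SE, adjusted p = 0.00087), without overlap.

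Glutamate receptor genes went both ways. Of 9 metabotropic receptors and their partners, 3 fell and 1 rose. Grm3, described above, was among those that fell and was the one of the 3 that kept its call with the long-gene covariate. Of 27 ionotropic receptor and auxiliary genes, 6 fell and 1 rose, with a median of -0.01. Of the 27, 19 span at least 100 kb, a class in which 14.1% of all tested genes fell. Grik1, a kainate receptor subunit, ran from 113 to 277 CPM (median 175) with the mutant and from 15.3 to 95.2 CPM (median 54.2) with Kir2.1 and fell by 1.51 ± 0.28 on the log2 scale (SE, adjusted p = 0.000853), without overlap. Gria3, an AMPA receptor subunit, ran from 703 to 1174 CPM (median 844) with the mutant and from 392 to 782 CPM (median 526.5) with Kir2.1 and fell by 0.70 ± 0.15 on the log2 scale (SE, adjusted p = 0.00299). Under the long-gene covariate 1 of the 6 kept its call, Grik1, and the adjusted p of Gria3 was 0.0616. The ionotropic genes that fell numbered 2 without mutant library 3 or 4 or Kir2.1 library 3 or 7, and 3 without mutant library 9 or Kir2.1 library 4, 5 or 10.

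Receptors for GABA and for modulatory transmitters fell or did not pass. Of 22 genes of GABA receptors and inhibitory synapses, 3 fell and 0 rose, with a median of -0.20. Of the 22, 11 span at least 100 kb, a class in which 14.1% of all tested genes fell. Gabra4 alone of the 3 kept its call with the long-gene covariate, and leaving out Kir2.1 library 6 gave 5 that fell. Gabra4, a subunit of extrasynaptic GABA receptors, ran from 129 to 216 CPM (median 175) with the mutant and from 43.2 to 113 CPM (median 72.3) with Kir2.1 and fell by 1.196 ± 0.19 on the log2 scale (SE, adjusted p = 0.000184), without overlap. Gabrg3 ran from 566 to 1043 CPM (median 737) with the mutant and from 254 to 655 CPM (median 445) with Kir2.1 and fell by 0.88 ± 0.17 on the log2 scale (SE, adjusted p = 0.00203), with an adjusted p of 0.0791 under the long-gene covariate. Among 24 monoamine and acetylcholine receptors 6 fell and 0 rose, with a median of -0.77, and of the 6 Htr7 alone kept its call with the long-gene covariate. Htr7, a serotonin receptor that raises cyclic AMP, ran from 11.4 to 27.0 CPM (median 18.4) with the mutant and from 2.30 to 9.46 CPM (median 5.45) with Kir2.1 and fell by 1.80 ± 0.33 on the log2 scale (SE, adjusted p = 0.00101). Hrh1, the histamine H1 receptor, ran from 54.6 to 72.1 CPM (median 60.9) with the mutant and from 6.41 to 45.3 CPM (median 26.8) with Kir2.1 and fell by 1.19 ± 0.26 on the log2 scale (SE, adjusted p = 0.00459), and its adjusted p was 0.0715 under the long-gene covariate. Both had groups that did not overlap.

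Presynaptic genes fell in 8 of 44 tested cases and rose in 2, with a median of -0.22. Of the 44, 16 span at least 100 kb, a class in which 14.1% of all tested genes fell. Rims1 and Rims2 are scaffolds of the active zone, where vesicles dock. Rims1 ran from 918 to 1585 CPM (median 1112) with the mutant and from 444 to 879 CPM (median 603) with Kir2.1 and fell by 0.94 ± 0.15 on the log2 scale (SE, adjusted p = 0.000215). Rims2 ran from 637 to 1130.5 CPM (median 881) with the mutant and from 409 to 636 CPM (median 463) with Kir2.1 and fell by 0.85 ± 0.14 on the log2 scale (SE, adjusted p = 0.000295). Rph3a, an effector of Rab3 on vesicles, ran from 61.7 to 106 CPM (median 90.4) with the mutant and from 12.1 to 50.2 CPM (median 36.7) with Kir2.1 and fell by 1.44 ± 0.23 on the log2 scale (SE, adjusted p = 0.000198). These 3 had no overlap between groups, and they are the 3 of the 8 that kept their call with the long-gene covariate. Syt17, an atypical synaptotagmin, ran from 46.3 to 91.7 CPM (median 65.9) with the mutant and from 81.5 to 169 CPM (median 135) with Kir2.1 and rose by 0.95 ± 0.17 on the log2 scale (SE, adjusted p = 0.000727). Postsynaptic scaffold genes fell in 8 of 28 cases and rose in 1. Of the 28, 16 span at least 100 kb, and Homer1 alone of the 8 that fell kept its call with that covariate. Without mutant library 3 the scaffold genes that fell numbered 4, and without mutant library 4 or 9 or Kir2.1 library 3, 4 or 7 they numbered 5.

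Adhesion genes of the synapse fell in 7 of 44 tested cases and rose in 0, with a median of -0.26. Of the 44, 25 span at least 100 kb, a class in which 14.1% of all tested genes fell, against 3.45% without regard to span. Of the 7, 4 kept their call with the long-gene covariate. Flrt2, a membrane protein that binds latrophilin and Unc5 receptors, ran from 197 to 402 CPM (median 299.7) with the mutant and from 85.7 to 190.4 CPM (median 156) with Kir2.1 and fell by 1.004 ± 0.17 on the log2 scale (SE, adjusted p = 0.000522), without overlap. Cntn4, an immunoglobulin-family contactin, ran from 508 to 1088 CPM (median 784) with the mutant and from 343 to 632 CPM (median 424) with Kir2.1 and fell by 0.83 ± 0.16 on the log2 scale (SE, adjusted p = 0.00113). Cadherins fell in 6 of 26 cases and rose in 1. All 6 span at least 100 kb, as do 19 of the 26. Of the 6, Pcdh11x and Cdh10 kept their call with the long-gene covariate. Pcdh11x, an X-linked protocadherin, ran from 72.9 to 202 CPM (median 126) with the mutant and from 35.1 to 77.4 CPM (median 47.0) with Kir2.1 and fell by 1.38 ± 0.21 on the log2 scale (SE, adjusted p = 0.00011). Cdh10, a type II cadherin, ran from 267 to 492 CPM (median 349) with the mutant and from 131 to 251 CPM (median 204) with Kir2.1 and fell by 0.93 ± 0.16 on the log2 scale (SE, adjusted p = 0.000522), without overlap. Cdh13, a cadherin held by a lipid anchor and also on the layer 2/3 list, was the one that rose. It ran from 127 to 318 CPM (median 223) with the mutant and from 289 to 840.5 CPM (median 398) with Kir2.1 and rose by 0.97 ± 0.21 on the log2 scale (SE, adjusted p = 0.00425). Axon guidance genes fell in 8 of 43 cases and rose in 1. All 8 span at least 100 kb, as do 29 of the 43, and Nrp1 alone of the 8 kept its call with the long-gene covariate. Without mutant library 3 the number that fell was 4, without mutant library 4 or 9 it was 5, and without Kir2.1 library 8 it was 14. Nrp1, the co-receptor of class 3 semaphorins, ran from 49.7 to 113 CPM (median 65.9) with the mutant and from 6.54 to 50.7 CPM (median 28.3) with Kir2.1. It fell by 1.31 ± 0.28 on the log2 scale (SE, adjusted p = 0.00353).

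Cyclic nucleotide enzymes fell in 10 of 34 tested cases and rose in 1, with a median of -0.16. All 10 span at least 100 kb, and 7 of them kept their call with the long-gene covariate. Among the phosphodiesterases, which degrade cyclic nucleotides, Pde10a ran from 441 to 950.5 CPM (median 673) with the mutant and from 144 to 344 CPM (median 185) with Kir2.1. It fell by 1.62 ± 0.19 on the log2 scale (SE, adjusted p = 5.61e-06). Pde7b ran from 204 to 436 CPM (median 387) with the mutant and from 93.3 to 196 CPM (median 119) with Kir2.1 and fell by 1.44 ± 0.18 on the log2 scale (SE, adjusted p = 1.16e-05). Pde4b fell by 0.96 ± 0.14 on the log2 scale (SE, adjusted p = 0.00011), and Pde8b fell by 0.70 ± 0.13 on the log2 scale (SE, adjusted p = 0.00127). Adcy8, an adenylyl cyclase stimulated by calcium and calmodulin, ran from 191 to 345 CPM (median 262) with the mutant and from 67.9 to 138 CPM (median 107) with Kir2.1 and fell by 1.34 ± 0.17 on the log2 scale (SE, adjusted p = 1.13e-05). Rapgef5, an exchange factor for Rap proteins, fell by 0.85 ± 0.15 on the log2 scale (SE, adjusted p = 0.000702). In these 6 genes the groups did not overlap. Of the 34 members 23 did not pass, and 15 had a log2 fold change above 0.

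Ras and MAP kinase genes fell in 6 of 29 tested cases and rose in 0, with a median of -0.14. Of the 6, 3 kept their call with the long-gene covariate. Rasal2, a Ras GTPase-activating protein, ran from 321 to 479 CPM (median 367) with the mutant and from 161 to 256 CPM (median 200.4) with Kir2.1 and fell by 0.92 ± 0.14 on the log2 scale (SE, adjusted p = 0.00011). Map3k5, the stress kinase ASK1, ran from 81.7 to 141 CPM (median 114) with the mutant and from 40.7 to 74.8 CPM (median 53.7) with Kir2.1 and fell by 1.02 ± 0.16 on the log2 scale (SE, adjusted p = 0.000184). Neither gene had overlapping groups. Neurotrophin and growth factor genes fell in 5 of 30 cases and rose in 1. With the long-gene covariate 2 of the 5 kept their call, and leaving out Kir2.1 library 6 raised the count that fell to 8. Fgf1, an acidic fibroblast growth factor, ran from 18.6 to 68.6 CPM (median 27.7) with the mutant and from 0.356 to 11.3 CPM (median 5.72) with Kir2.1 and fell by 2.56 ± 0.48 on the log2 scale (SE, adjusted p = 0.00113), without overlap. Ntrk2, the gene of the BDNF receptor TrkB, ran from 513 to 938 CPM (median 638) with the mutant and from 337 to 532 CPM (median 402) with Kir2.1. It fell by 0.72 ± 0.15 on the log2 scale (SE, adjusted p = 0.00361), and its adjusted p was 0.126 with the long-gene covariate.

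Circadian clock genes, which matter in mice kept without a light cycle, rose in 2 and fell in 2 of 19 tested cases. The count that fell was 0 or 1 without any 1 of 13 libraries. Tef, a transcription factor of the clock output, ran from 112 to 157 CPM (median 129) with the mutant and from 127 to 301 CPM (median 248) with Kir2.1 and rose by 0.86 ± 0.15 on the log2 scale (SE, adjusted p = 0.000713). Per3, a period gene, ran from 158 to 232 CPM (median 173) with the mutant and from 213 to 342 CPM (median 304) with Kir2.1 and rose by 0.65 ± 0.14 on the log2 scale (SE, adjusted p = 0.00382). The times of day of collection were not used here. Extracellular matrix genes were the list with the most members that rose, 5 of 28, and 2 fell, with a median of -0.0103. Of the matrix genes that rose, 2 kept their call with the long-gene covariate. The number that rose was 2 without mutant library 3 or 9, and 3 without mutant library 4, 5, 7 or 8 or Kir2.1 library 3, 5, 7 or 9. Besides Matn2, Col23a1, a transmembrane collagen, ran from 3.95 to 37.2 CPM (median 16.1) with the mutant and from 18.5 to 79.2 CPM (median 47.8) with Kir2.1 and rose by 1.58 ± 0.36 on the log2 scale (SE, adjusted p = 0.00794), with an adjusted p of 0.07 without Kir2.1 library 10 and mutant libraries 3 and 4. Col19a1, a collagen made by some neurons, went the other way, 104 to 218 CPM in mutant libraries (median 143) against 34.2 to 94.9 CPM in Kir2.1 libraries (median 47.6), and fell by 1.42 ± 0.21 on the log2 scale (SE, adjusted p = 7.49e-05), without overlap.

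A few smaller lists held single genes of note. Thrb, a thyroid hormone receptor, ran from 491 to 858 CPM (median 591) with the mutant and from 152 to 502 CPM (median 312) with Kir2.1 and fell by 0.94 ± 0.18 on the log2 scale (SE, adjusted p = 0.0014), so both called genes of the 8 tested in the thyroid list, Thrb and Trhde, fell. Of 13 nuclear envelope genes Mlip and Syne1 fell. Syne1, the gene of the giant envelope protein nesprin-1, ran from 647 to 897 CPM (median 782) with the mutant and from 358 to 518 CPM (median 494) with Kir2.1 and fell by 0.75 ± 0.12 on the log2 scale (SE, adjusted p = 0.000227). In lipid synthesis and transport, Osbpl8 fell by 1.13 ± 0.18 on the log2 scale (SE, adjusted p = 0.000177) beside Osbpl3, and Pcyt2, an enzyme of phosphatidylethanolamine synthesis, rose by 0.87 ± 0.17 on the log2 scale (SE, adjusted p = 0.00178). Peg3, an imprinted zinc finger gene, fell by 0.87 ± 0.15 on the log2 scale (SE, adjusted p = 0.000525), opposite to the imprinted Nnat. Stat2, which relays interferon signals, ran from 15.2 to 40.9 CPM (median 27.3) with the mutant and from 36.4 to 124 CPM (median 51.7) with Kir2.1 and rose by 1.11 ± 0.24 on the log2 scale (SE, adjusted p = 0.00468), the only call among 18 interferon and innate genes.

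Several lists had 0 calls or 1. None of 24 sterol synthesis genes passed, although their median log2 fold change was 0.51 and 11 of them were called in VIP nuclei. Of 48 cytosolic ribosomal protein genes 1 rose and 0 fell, with a median of 0.28, and of 41 nuclear oxidative phosphorylation genes 0 passed, with a median of 0.17. Genes of these lists are short, with median spans of 3.68 kb and 7.21 kb, in the class where the median of all genes was 0.18. Neither the 24 unfolded protein response genes nor the 14 genes of the p53 pathway had a call, with medians of 0.07 and 0.05.

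**Figure D4:**
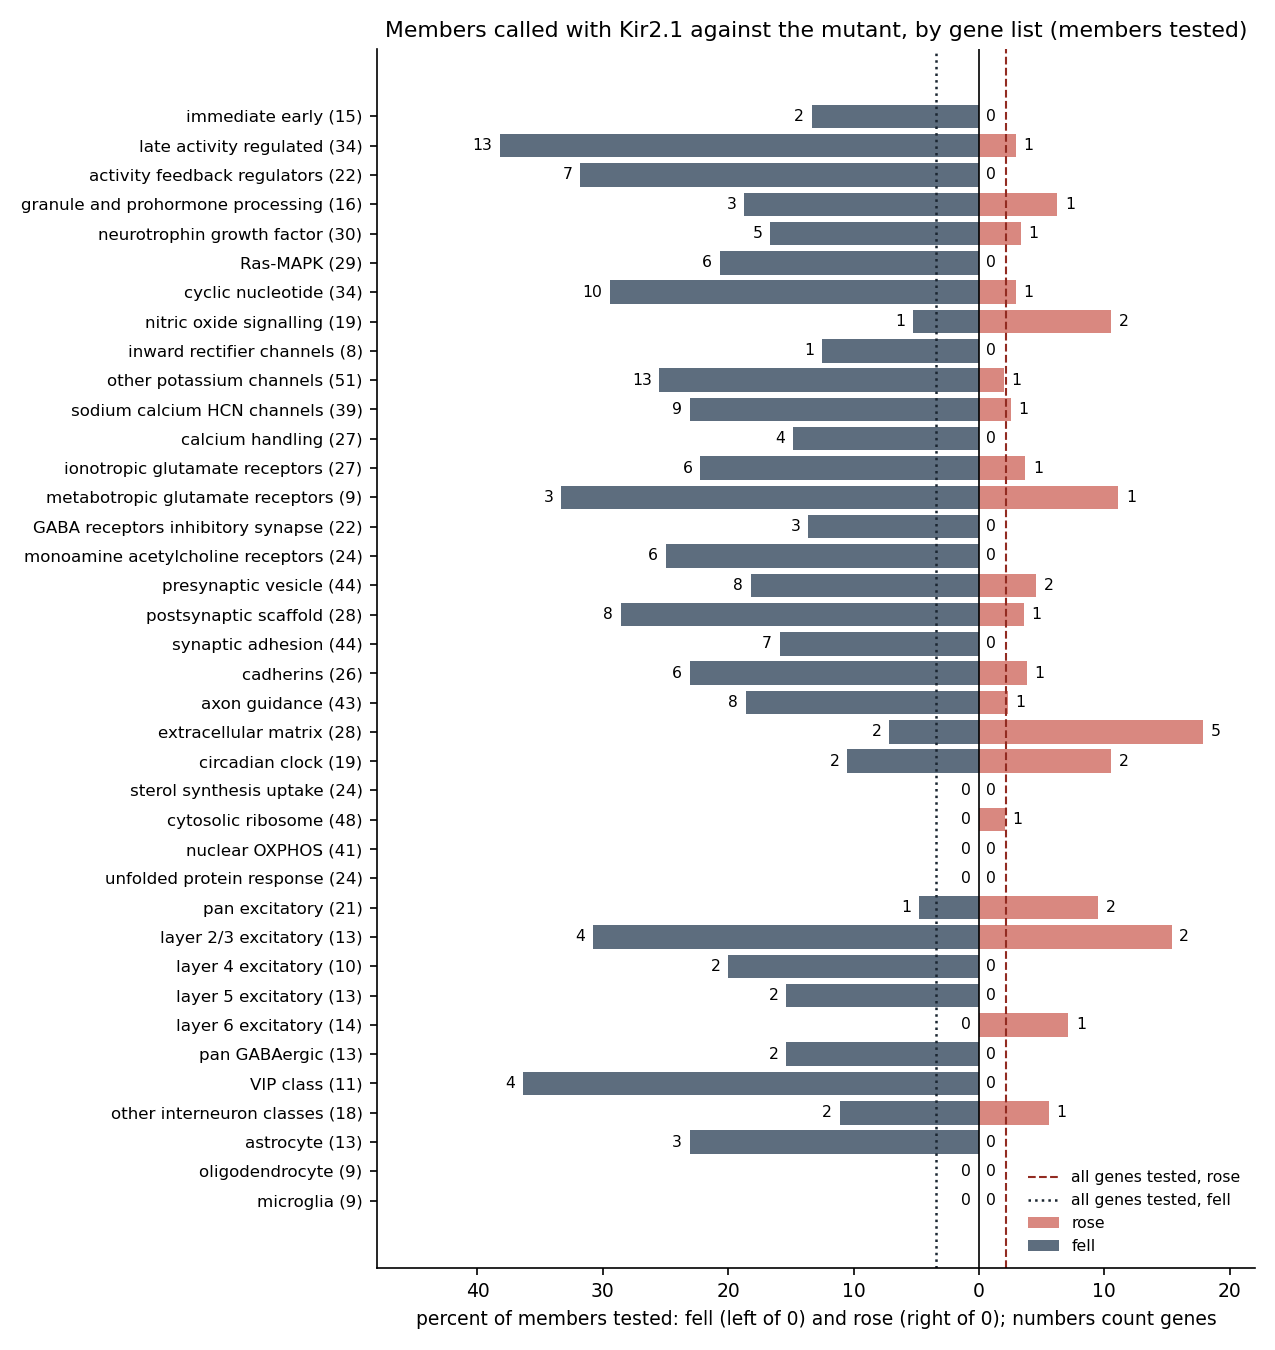
Percent of tested members that rose (right of 0, red) or fell (left of 0, blue) in each gene list, with the number of tested members in brackets and the number of genes at each bar; dashed and dotted lines give 2.18% and 3.45%, the shares of all tested genes. Late activity-regulated genes reach 13 of 34 fallen, and extracellular matrix genes 5 of 28 risen.

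Markers of cell types were read to see what the sort held in each group. Pan-excitatory markers had a summed level of 5858 to 7078 CPM in Kir2.1 libraries and 6361 to 7745 CPM in mutant libraries, 2 of 21 tested rose and 1 fell. Without any 1 of 8 libraries 1 of them rose. Nrgn, the calmodulin-binding neurogranin, ran from 122 to 189 CPM (median 154) with the mutant and from 177 to 687 CPM (median 233) with Kir2.1 and rose by 0.87 ± 0.21 on the log2 scale (SE, adjusted p = 0.0118), with an adjusted p of 0.167 under the long-gene covariate and 0.0816 without Kir2.1 library 10 and mutant libraries 3 and 4. Arpp21, a cyclic AMP-regulated phosphoprotein, ran from 1494 to 2086 CPM (median 1803) with the mutant and from 850.1 to 1379 CPM (median 1125) with Kir2.1 and fell by 0.66 ± 0.12 on the log2 scale (SE, adjusted p = 0.00117). Of the layer lists, layer 2/3 had 2 that rose and 4 that fell of 13, layer 4 had 2 that fell of 10, layer 5 had 2 of 13, and layer 6 had 1 that rose of 14. Among all genes tested 2.18% rose and 3.45% fell. Of the 4 layer 2/3 genes that fell 1 kept its call with the long-gene covariate, and without mutant library 5 or 7 the count was 2. Under that covariate neither layer 4 gene kept its call, nor did the layer 6 gene, and in layer 5 Etv1 alone kept it. The layer 4 count was 1 without mutant library 7 or Kir2.1 library 3, 7 or 9. The layer 5 count was 1 without mutant library 7. Adamts2, a procollagen protease on the layer 2/3 list, ran from 23.5 to 43.0 CPM (median 37.6) with the mutant and from 48.8 to 131 CPM (median 92.0) with Kir2.1 and rose by 1.44 ± 0.21 on the log2 scale (SE, adjusted p = 7.58e-05), without overlap. Etv1, an ETS factor of layer 5, ran from 36.3 to 106 CPM (median 59.4) with the mutant and from 7.48 to 31.3 CPM (median 22.1) with Kir2.1 and fell by 1.70 ± 0.27 on the log2 scale (SE, adjusted p = 0.000172), without overlap.

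All 13 tested markers of GABAergic neurons had a log2 fold change below 0, with a median of -0.54, and 2 of them fell by the test. Summed over all members, tested or not, their level was 601.7 to 2210 CPM (Kir2.1) and 1157 to 2619 CPM (mutant). The ranges of the vectors thus overlapped, and the sum was 6557 to 13290 CPM in transduced VIP nuclei. Over the 13 tested, with TMM scaling, it was 572.8 to 2173 CPM and 1187 to 3042 CPM. Without any 1 of 11 libraries only 1 of the tested markers fell. Gad1, the enzyme that makes GABA, ran from 46.8 to 105 CPM (median 64.1) with the mutant and from 24.7 to 54.2 CPM (median 35.5) with Kir2.1 and fell by 0.96 ± 0.21 on the log2 scale (SE, adjusted p = 0.0052). Markers of the VIP class summed to 662.3 to 1351 CPM and 1052 to 2123 CPM, and 4 of 11 tested fell, of which Egfr alone kept its call with the long-gene covariate. They included Adarb2, 68.2 to 498 CPM in mutant libraries (median 202) against 23.4 to 94.0 CPM in Kir2.1 libraries (median 56.4), which fell by 2.13 ± 0.36 on the log2 scale (SE, adjusted p = 0.000481), and Htr1f, a serotonin receptor, 57.7 to 138 CPM in mutant libraries (median 86.9) against 25.2 to 54.8 CPM in Kir2.1 libraries (median 43.9), which fell by 1.06 ± 0.19 on the log2 scale (SE, adjusted p = 0.000894). Both were lost under the long-gene covariate, at adjusted p = 0.0586 and 0.0711. Vip itself was counted in 4 of 8 Kir2.1 and 3 of 8 mutant libraries, with at most 8.04 and 5.74 CPM. Reln, made by several interneuron types, ran from 63.0 to 129 CPM (median 91.5) with the mutant and from 18.9 to 72.3 CPM (median 34.6) with Kir2.1 and fell by 1.27 ± 0.25 on the log2 scale (SE, adjusted p = 0.0015). Of 18 tested markers of other interneuron classes, 2 fell, Reln and Lamp5, and Nos1 alone rose. The part of interneuron content in the vector difference was not tested.

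Of 13 astrocyte markers tested, 3 fell and 0 rose, with a median of -0.19 and 5 above 0, and 1 kept its call with the long-gene covariate. Summed over all members, tested or not, their level was 383.6 to 530.3 CPM (Kir2.1) and 573.7 to 717.9 CPM (mutant), without overlap. Over the 13 tested, with TMM scaling, it was 373.9 to 545.1 CPM and 548.9 to 830.4 CPM, a narrow gap. The largest part was Slc1a2, the glutamate transporter GLT-1, which excitatory neurons also transcribe. It ran from 315 to 431 CPM (median 352) with the mutant and from 121 to 238 CPM (median 185) with Kir2.1 and fell by 0.99 ± 0.14 on the log2 scale (SE, adjusted p = 5.79e-05), without overlap, and it was the one that kept its call. Slc4a4, a sodium bicarbonate cotransporter, ran from 77.1 to 135 CPM (median 100.2) with the mutant and from 24.2 to 78.5 CPM (median 63.4) with Kir2.1 and fell by 0.77 ± 0.20 on the log2 scale (SE, adjusted p = 0.0207), and its adjusted p was 0.317 under that covariate. Aldh1l1, a folate enzyme of astrocytes, ran from 5.59 to 24.2 CPM (median 14.5) with the mutant and from 1.51 to 11.1 CPM (median 2.44) with Kir2.1 and fell by 1.75 ± 0.47 on the log2 scale (SE, adjusted p = 0.0252). Its adjusted p was 0.138 under the covariate, and the call also ended without mutant library 3, 7 or 9, with an adjusted p of up to 0.0721. Gfap was at 3.40 to 18.6 and 3.12 to 46.2 CPM and Aqp4 at 0 to 3.75 and 0 to 3.54 CPM. Oligodendrocyte markers summed to 206.2 to 338.5 CPM and 167.3 to 472.6 CPM, microglial markers to 165.0 to 254.2 CPM and 125.1 to 207.6 CPM, and 0 of 9 tested passed in either list. In non-transduced nuclei of the Kir2.1 cortices these sums were 1351 to 5303 CPM and 716.7 to 1694 CPM. The astrocyte sum was 624.3 to 1042 CPM there and 689.7 to 1218 CPM in non-transduced nuclei of mutant cortices. Both ranges overlapped that of the mutant neuron libraries, so astrocyte markers were less depleted by the sort. The endothelial gene Cldn5 was at 0 in all 8 Kir2.1 libraries and in 7 of 8 mutant libraries.

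The vector difference was then set beside that in 2 other sorts of the series, each in 1 fit with the neurons: transduced VIP nuclei (10 Kir2.1, 9 mutant) and all non-transduced nuclei (10 and 9). In VIP nuclei 387 of 18359 genes were called (2.11%), and in non-transduced nuclei 0 of 19304 by edgeR, with 1285 at an unadjusted p under 0.05 and 8 called by DESeq2. Kcnj2 ran from 7.97 to 165.6 CPM (median 15.97) in non-transduced nuclei of Kir2.1 cortices. It ran from 2.70 to 22.9 CPM (median 17.4) in those of mutant cortices, and from 3.84 to 8.09 CPM in nuclei without any virus. The source of this signal was not tested. The difference of the differences was called for 58 genes between neurons and VIP nuclei (0.316%) and for 105 between neurons and non-transduced nuclei (0.544%). Same-numbered libraries of these sorts shared their sex by Xist and Y-linked transcripts in all 19 combinations of vector and number, so a fit with that combination as a block was set beside. It called 49 and 259 genes, of which 32 and 96 were also called without the block. In the neurons themselves 2935 genes had an unadjusted p under 0.05.

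Against VIP nuclei, R3hdm1, Grm3, Grik1, Gabra4, Pde7b and Thsd7b differed, all lower with Kir2.1 in neurons. In VIP nuclei R3hdm1 had a log2 fold change of -0.20 (adjusted p = 0.494), and the difference was -1.10 ± 0.17 (SE, adjusted p = 0.000328). Grm3 had -0.08 (adjusted p = 0.954) there and a difference of -1.85 ± 0.37 (SE, adjusted p = 0.00808), Grik1 0.36 (adjusted p = 0.5261) and -1.91 ± 0.32 (SE, adjusted p = 0.0015), and Gabra4 0.14 (adjusted p = 0.846) and -1.37 ± 0.26 (SE, adjusted p = 0.00486). Cdh13 went opposite ways: it fell in VIP nuclei by 1.08 on the log2 scale (adjusted p = 0.000535) and rose in neurons, with a difference of 2.02 ± 0.28 (SE, adjusted p = 0.000194). Clstn2, a synaptic calsyntenin, fell in VIP nuclei by 1.08 (adjusted p = 0.000255) and had a difference of 1.53 ± 0.27 (SE, adjusted p = 0.00251). In neurons alone its adjusted p was 0.0496, a call that ended without any 1 of 12 of the 16 libraries. Sidt1, a membrane protein that takes part in RNA uptake, fell by 0.64 ± 0.13 on the log2 scale (SE, adjusted p = 0.00246) in neurons, had 0.31 (adjusted p = 0.174) in VIP nuclei and differed by -0.99 ± 0.17 (SE, adjusted p = 0.00238), and its adjusted p in neurons was 0.0513 under the long-gene covariate. Trpc6, a cation channel, differed by 1.76 ± 0.31 (SE, adjusted p = 0.00251), with 0.17 in neurons and -1.63 (adjusted p = 5.13e-06) in VIP nuclei. Cldn1, a tight junction claudin, stayed below the filter in neurons alone, with a mean of 1.78 CPM with the mutant and 0.0188 CPM with Kir2.1, against 19.6 and 21.8 CPM in VIP nuclei. Egfr fell in both, with -1.55 (adjusted p = 0.000505) in VIP nuclei and a difference of -4.01 ± 0.61 (SE, adjusted p = 0.000328).

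For other leading genes no difference between neurons and VIP nuclei was found. Mlip had -2.11 (adjusted p = 1.24e-08) in VIP nuclei, Pde10a -2.06 (adjusted p = 1.51e-08), Hdac9 -1.44 (adjusted p = 6.17e-06) and Nr4a1 -2.86 (adjusted p = 0.000242), all called there too. Their differences were 0.44 ± 0.30 (SE, adjusted p = 0.936), 0.40 ± 0.30 (SE, adjusted p = 0.975), -0.12 ± 0.28 (SE, adjusted p = 1) and -0.88 ± 0.68 (SE, adjusted p = 0.987). Nos1 had 0.62 (adjusted p = 0.579) in VIP nuclei and a difference of 2.41 ± 0.59 (SE, adjusted p = 0.0548), just short of the threshold, and at an adjusted p of 0.0252 with the block of vector and number. These p-values do not show that the responses were alike.

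Against the non-transduced nuclei of injected cortices, the difference was called for Nos1, 2.39 ± 0.46 (SE, adjusted p = 0.00337), R3hdm1, -1.14 ± 0.19 (SE, adjusted p = 0.00133), and for Mlip, Grm3, Trhde, Bach2, Samd4, Hdac9, Zfp804b and Osbpl3 among others that fell. Pcsk1 had the smallest adjusted p, with 0.19 (adjusted p = 0.934) in non-transduced nuclei and a difference of -2.99 ± 0.40 (SE, adjusted p = 5.52e-05). Gm3294, a predicted gene, fell by 2.53 ± 0.33 on the log2 scale (SE, adjusted p = 1.56e-05) in neurons and differed by -2.45 ± 0.37 (SE, adjusted p = 0.000241). Egr1 had -0.999 (adjusted p = 0.705) in non-transduced nuclei and a difference of -2.30 ± 0.66 (SE, adjusted p = 0.112), which did not pass without the block and did with it (adjusted p = 0.0202).

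**Figure D5:**
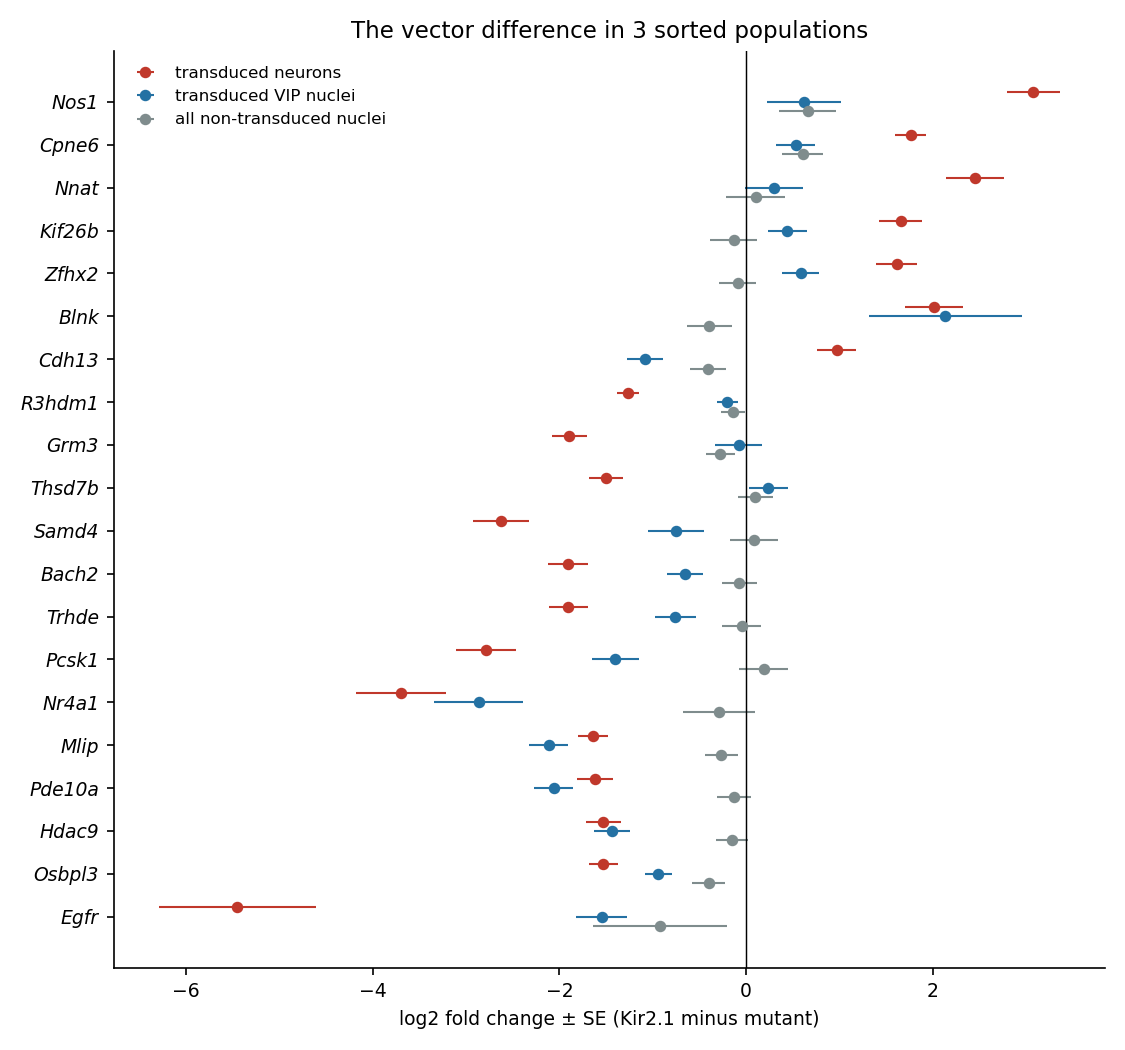
Log2 fold change of Kir2.1 minus mutant with its SE for 20 genes in transduced neurons (red), transduced VIP nuclei (blue) and all non-transduced nuclei (grey). Nos1 lies above 0 in all sorts and much farther from it in neurons. R3hdm1 lies far below 0 in neurons and near it in the other sorts. Mlip and Pde10a lie below 0 in both transduced sorts, and Cdh13 lies on opposite sides of 0 in them.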

How the data were processed

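RNA of sorted nuclei was measured in 79 libraries, of which the 16 of transduced neurons were compared by vector. Values are whole-number counts per gene for 55335 genes, deposited by the authors as 1 unnormalized table. Per the submitters' processing notes, cutadapt 1.18, STAR 2.5.3a, HOMER 4.9.1 and mm10 were used, with no role or order stated. Annotation, strand setting and handling of duplicates are not given in the sources used here. Per the labels' protocols, cDNA was primed with oligo-dT, amplified over 17 PCR cycles and made into Nextera XT libraries, so a count is a PCR product with no molecular identifier. Gene names and spans came from GENCODE vM21 (GRCm38), which held 55154 of the identifiers. The other 181 held 0.0260% of counts.

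Genes passed filterByExpr (minimum count 10, minimum total 15) and were tested with edgeR 4.0.16 (TMM scaling, quasi-likelihood F test, two-sided) in R 4.3.3, with Benjamini-Hochberg adjustment over all genes tested and a threshold of 0.05. Alternatives used limma 3.58.1 and DESeq2 1.42.0. The fit of neurons held these 16 libraries alone, and each difference between sorts came from 1 fit with the 19 libraries of the other sort. The test was checked on simulated counts. Lists were described by counts and medians with no set test. The named genes were the 15 of smallest adjusted p with at least a 2-fold change, the 10 of largest fold and the 10 most abundant in each direction, up to 8 called members of each list, and the 8 of smallest adjusted p in each difference between sorts. From each group those whose calls held without any 1 library were preferred. The comparison, its 3 marker genes and the gene lists were chosen with earlier results of these data known. Promoters came from RefSeq (GRCm38.p6), and a gene on chromosome 18 is given without position or sequence. A few genes that the rule named are not reported here.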

Additional observations from a re-analysis of the deposited data

Results flagged for a closer look

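A single library stood apart from the other 7 of its group in 13 of the 242 groups of 8 values examined for the genes named and for measures of the libraries, by the ratio of its gap to the group's range, and in each of the 13 it was the highest. Chance alone marks about 1 in 20 such groups. Kir2.1 library 10 was the highest for Rnf207 at 167 CPM (next 79.1), Cdh13 at 840.5 CPM (next 543), Nrgn at 687 CPM (next 268) and Egfr at 1.09 CPM (next 0.295). Kir2.1 library 8 was the highest for Fgf13 at 109.8 CPM (next 45.5). Mutant library 4 was the highest for Grik1 at 277 CPM (next 179.7), Fgf1 at 68.6 CPM (next 37.9), Col19a1 at 218 CPM (next 152) and Clstn2 at 1200.0 CPM (next 859.7). The others were Blnk at 21.1 CPM in mutant library 2 (next 10.9), Asl at 37.7 CPM in mutant library 7 (next 14.9), Pcsk1 at 96.6 CPM in mutant library 3 (next 50.0) and Pcdh11x at 77.4 CPM in Kir2.1 library 4 (next 50.8). Kir2.1 library 10 is also the library of lowest correlation with its group. The calls of Cdh13, Egfr and Rnf207 held without it.

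The vector difference in neurons differed from that in transduced VIP nuclei by edgeR's test of the difference for 16 of the genes named, with adjusted p from 0.000194 to 0.04. On the log2 scale the neuron value exceeded the other by 2.11 for Nnat, 2.02 for Cdh13, 1.76 for Trpc6 and 1.53 for Clstn2. It was lower in neurons, with a difference of -4.01 for Egfr, -1.91 for Samd4, -1.91 for Grik1, -1.85 for Grm3, -1.78 for Thsd7b, -1.64 for Pde7b and -1.37 for Gabra4. It was -1.29 for Bach2, -1.10 for R3hdm1, -0.99 for Sidt1, -0.94 for Sorbs2os and -0.91 for Rasal2. For Cldn1 the fitted difference was -5.62 (adjusted p = 0.00251), a value that depends on the prior count because its mean in Kir2.1 neurons was near 0.

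The vector difference in neurons differed from that in all non-transduced nuclei by edgeR's test of the difference for 37 of the genes named, with adjusted p from 5.52e-05 to 0.0455. On the log2 scale the neuron value exceeded the other by 2.39 for Nos1, 2.39 for Blnk, 2.33 for Nnat, 1.77 for Kif26b, 1.69 for Zfhx2, 1.41 for Gm20687 and 1.36 for Cdh13. It was 1.17 for Lztr1. It was lower in neurons, with a difference of -4.33 for Stac, -3.43 for Nr4a1, -2.99 for Pcsk1, -2.72 for Samd4, -2.45 for Gm3294, -2.43 for Fgf1 and -2.22 for Fgf13. It was -2.03 for Zfp804b, -1.95 for Etv1, -1.87 for Trhde, -1.85 for Bach2, -1.63 for Grm3, -1.62 for Thsd7b and -1.51 for Pde10a. It was -1.44 for Dusp3, -1.39 for Mlip, -1.39 for Hdac9, -1.36 for Col19a1, -1.36 for Pcdh11x, -1.33 for Adcy8 and -1.24 for Htr1f. It was -1.15 for Osbpl3, -1.14 for R3hdm1, -1.06 for Gabra4, -0.99 for Osbpl8, -0.97 for Sorbs2os, -0.86 for Cdh10 and -0.78 for Peg3. It was -0.68 for Syne1. With vector and replicate number together as a block, 4 of these differences no longer passed, those of Nnat (adjusted p = 0.0854) and Samd4 (adjusted p = 0.074) against VIP nuclei and of Cdh13 (adjusted p = 0.057) and Dusp3 (adjusted p = 0.0943) against non-transduced nuclei. More of the genes named passed with the block alone, 7 against VIP nuclei and 39 against non-transduced nuclei.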

How the results depend on the processing

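Against 347 genes that rose and 551 that fell, relative log expression factors gave 330 and 580, upper-quartile scaling 298 and 611, no filter 333 and 595, a filter of 50 counts in 8 libraries 362 and 598, limma-voom 348 and 684, and the sex label as covariate 398 and 619. The sex label disagreed with Xist and the Y-linked genes in 7 of the 16 libraries, so that setting does not adjust for sex by transcripts. DESeq2 called 557 and 831. Leaving out 1 library at a time gave 231 to 432 that rose, lowest without mutant library 3, and 408 to 630 that fell. Alternatives chosen after seeing the data gave fewer calls: 173 and 365 without Kir2.1 library 10 and mutant libraries 3 and 4, and 153 and 242 with the long-gene covariate. With the replicate block, which drops the libraries without a partner number, 163 rose and 363 fell, and 475 of the 898 main calls were kept. Calls that edgeR's test lost with this block are not marked beside each gene above. They included Snhg11 (adjusted p = 0.104), Myt1l (0.078), Bdnf (0.0825), Scg3 (0.0936), Spred3 (0.0591) and Stat2 (0.0512). Same-numbered libraries of the 2 vectors did not deviate together (r = -0.0745 to 0.0398), so the number was not taken as a pairing. The difference from VIP nuclei was called for 58 genes, 57 with relative log expression factors, 49 with the replicate block, 103 by DESeq2 and 274 with no filter. From non-transduced nuclei it was called for 105, 101, 259, 226 and 468 genes in that order. Within a vector, same-numbered libraries shared their sex by transcripts in all 19 combinations of vector and number, but no label ties them to an animal, and their deviations correlated at -0.0656 to 0.489 between neurons and VIP nuclei and at 0.105 to 0.283 (mutant) and 0.0666 to 0.456 (Kir2.1) between neurons and non-transduced nuclei, with the own number best in 3 and 6 of 8 for each vector. The titles give each number as BioRep and do not say what it marks. Whether these numbers pair the libraries is thus not settled. If they do, the fits of the differences between sorts without the block ignore that pairing. In VIP nuclei DESeq2 called 578 genes against 387, and in non-transduced nuclei 8 against 0. Over 218 gene results and 26 settings, 5022 values kept direction and side of the threshold, 622 no longer passed and 2 reversed: Kcnj2 at -0.52 and Syne2 at -0.19 with the long-gene covariate, neither of which passed in any direction. Where not given above, the cause was not tested. The filter removes genes without about 10 counts in at least 8 libraries, among them 16 of 31 immediate early genes. Some of these were counted mainly with the mutant, such as Fos, with 306 counts over the mutant libraries and 16 over the Kir2.1 libraries. The counts of immediate early genes that fell leave them out.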
